A study of Homo sapiens with 8 samples.

Results

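GAS7, WDR72, DYSF, SATB1, NFATC1 and CSDC2 are 6 protein-coding genes with large differences between HepG2 cells treated with EZH1/2 inhibitors (EZHi) and cells treated with vehicle. They were chosen by symbol because of these differences, and they are 6 of 25603 genes in the expression table. HepG2 is an established human hepatocarcinoma cell line, so the data describe a tumour line and not primary hepatocytes. The EZHi cells were given UNC1999 and valemetostat tosylate for 4 days, each at 1 µM. The vehicle cells were given DMSO for the same time, at 0.2% per the labels. Each group comprised 4 libraries of bulk RNA-seq, and all cells shared the same medium with serum, insulin and dexamethasone. Bulk RNA cannot tell a change in the number of expressing cells from a change in the RNA of each cell. Since the measured differences led to the choice of the 6 genes, their own values are given as a description without any test.

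EZH1 and EZH2 are the catalytic subunits of the polycomb repressive complex 2 (PRC2), which methylates lysine 27 of histone H3. The trimethylated form, H3K27me3, is a mark of silent developmental and lineage genes, and in mammals PRC2 is found mostly at promoters rich in CpG dinucleotides. Inhibitors of both enzymes deplete the mark over successive cell divisions, and silent target genes may then be transcribed.

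The 6 genes have unrelated roles, most of them known from tissues other than the liver. GAS7 (growth arrest specific 7) encodes an F-BAR protein that binds membrane and actin and promotes neurite outgrowth. WDR72 encodes a WD-repeat protein required for tooth enamel maturation and for acid secretion in the kidney. DYSF encodes dysferlin, a calcium-binding ferlin that reseals the plasma membrane of muscle fibres and is mutated in limb-girdle muscular dystrophy. SATB1 encodes a chromatin organiser with CUT and homeobox domains that is best known in T cells. NFATC1 encodes a transcription factor that enters the nucleus once calcineurin has dephosphorylated it, and it acts in T cells, osteoclasts and heart valve formation. CSDC2 encodes a cold shock domain RNA-binding protein that is mainly expressed in brain.

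Promoter sequences of members are shown here because PRC2 is known for CpG-rich promoters. RefSeq windows (GRCh38.p14), running from 250 bases before to 50 bases after a transcription start, were found for 4 of the 6 genes, in 8 windows. GAS7 and CSDC2 had no entry. One window is printed per gene, 5′ to 3′ on the strand of the gene, with CpG dinucleotides in capitals. For SATB1 and NFATC1 it is the window at the start of the MANE transcript, and for WDR72 and DYSF it is the only window.
WDR72, chr15:53762829-53763128, minus strand: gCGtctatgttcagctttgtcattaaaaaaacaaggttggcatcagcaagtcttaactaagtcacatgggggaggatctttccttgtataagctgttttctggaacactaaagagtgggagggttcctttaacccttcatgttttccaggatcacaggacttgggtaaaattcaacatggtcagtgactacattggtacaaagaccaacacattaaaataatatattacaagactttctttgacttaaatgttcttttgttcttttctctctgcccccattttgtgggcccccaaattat
DYSF, chr2:71453311-71453610, plus strand: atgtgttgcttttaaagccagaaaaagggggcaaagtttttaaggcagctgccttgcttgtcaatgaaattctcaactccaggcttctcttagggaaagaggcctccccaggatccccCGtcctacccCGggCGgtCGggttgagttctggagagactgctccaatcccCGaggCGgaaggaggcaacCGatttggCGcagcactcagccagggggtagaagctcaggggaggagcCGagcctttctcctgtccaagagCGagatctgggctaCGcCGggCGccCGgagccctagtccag
SATB1, chr3:18425290-18425589, minus strand: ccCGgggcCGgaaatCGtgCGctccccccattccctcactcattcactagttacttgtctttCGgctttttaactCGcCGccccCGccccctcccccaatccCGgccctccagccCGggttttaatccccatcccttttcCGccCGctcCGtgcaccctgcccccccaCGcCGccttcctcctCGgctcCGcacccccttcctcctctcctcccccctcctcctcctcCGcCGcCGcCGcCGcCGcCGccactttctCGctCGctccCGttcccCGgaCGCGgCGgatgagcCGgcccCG
NFATC1, chr18:79395680-79395979, plus strand: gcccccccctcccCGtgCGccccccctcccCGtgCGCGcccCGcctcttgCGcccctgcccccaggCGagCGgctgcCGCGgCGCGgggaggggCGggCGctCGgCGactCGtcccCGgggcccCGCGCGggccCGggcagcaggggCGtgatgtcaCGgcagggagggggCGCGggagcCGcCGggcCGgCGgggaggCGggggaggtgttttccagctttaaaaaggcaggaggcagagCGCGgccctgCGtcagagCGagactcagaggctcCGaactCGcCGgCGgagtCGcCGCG
The NFATC1 window held 43 CpG dinucleotides and 79.7% G or C, which placed it at the 95.0 percentile of CpG number among 35116 windows. The SATB1 window held 33 CpG at 70.7% G or C, at the 82.8 percentile. The DYSF window held 14, equal to the median of all windows, at 58.7% G or C, and its start lay 13138 bases upstream of the MANE start. The WDR72 window held 1 CpG at 38.7% G or C, at the 3.96 percentile, and its start lay 3215 bases upstream of the MANE start. The printed windows therefore ranged from almost no CpG to a number exceeded by few promoters. The remaining SATB1 windows, at starts further upstream, held 12, 14 and 6 CpG, and the second NFATC1 window, downstream of the first, held 41. The motif GGGCGG, which itself contains a CpG, was present on either strand in 6 of the 8 windows and in 45.0% of all windows. The motif TATAAA was present on either strand in 0 of the 8 windows and in 11.5% of all windows. RNA-seq of these libraries measured neither the histone mark nor the use of each start.

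Expression is given on the deposited log2 scale, which is corrected for transcript length. That scale shrinks differences between libraries for genes with few reads, so their spread within groups is understated too. Levels of different genes are compared as estimated FPKM (fragments per kilobase of transcript and per 1000000 normalized reads), computed from those values. Each gene was ranked among all 25603 genes by its difference in group means, EZHi minus vehicle, with rank 1 for the largest rise. All 6 genes passed the filter of a mean estimated FPKM of at least 0.1 that defined the 20153 genes tested. The mean covered both groups, so genes under 0.1 in vehicle were tested only through a higher EZHi level. Such genes could hardly be called lower. Their groups overlapped in none of the 6 genes, whereas 10.7% of all tested genes had every EZHi library above every vehicle library. All 6 also had a log2 difference of at least 1, against 3.34% of tested genes, and 3.21% of tested genes were both called by limma (adjusted p under 0.05) and at least 2-fold higher. Nothing is read from these counts, because the genes were picked for this contrast.

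GAS7 (ENSG00000007237, GRCh38 chr17:9910606-10198606, minus strand, 288 kb, 19 annotated transcripts) had the largest difference in the table, at rank 1. Its log2 values in vehicle were 2.98, 2.61, 2.78 and 2.96 in replicates 1 to 4, and 6.57, 6.85, 7.73 and 7.55 in EZHi. The vehicle libraries lay close together on this shrunken scale, and the lowest EZHi library was 3.60 above the highest vehicle library. The means were 2.83 ± 0.17 and 7.18 ± 0.55 (SD, n = 4), a log2 difference of 4.34 or a 20.3-fold higher level. Replicates of equal number differed by 3.60, 4.23, 4.95 and 4.59. As estimated FPKM, GAS7 went from 0.28 ± 0.033 to 5.96 ± 2.2 (SD, n = 4). It thereby moved from the 35.9 to the 63.8 percentile of all genes.

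WDR72 (ENSG00000166415, chr15:53513741-53762878, minus strand, 249 kb, 8 transcripts) was at rank 3. Vehicle log2 values were 2.27, 2.26, 1.59 and 1.85, and EZHi values were 5.53, 5.34, 6.17 and 6.13. Replicates 3 and 4 were the lowest in vehicle and the highest in EZHi, so that the differences of equal-numbered replicates fell into a lower pair of 3.25 and 3.07 and a higher pair of 4.58 and 4.28. The means were 1.99 ± 0.33 and 5.79 ± 0.42 (SD, n = 4), a difference of 3.80 on the log2 scale or 13.9-fold. The spread of its replicate differences (SD 0.75) was the widest of the 6 genes. Its estimated FPKM of 0.159 ± 0.035 in vehicle was the lowest of the 6, and it reached 2.23 ± 0.64 (SD, n = 4) in EZHi.

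DYSF (ENSG00000135636, chr2:71453561-71686763, plus strand, 233 kb, 22 transcripts) was at rank 6. Its vehicle log2 values were 3.80, 2.84, 4.73 and 4.22, and its EZHi values were 7.03, 6.57, 8.61 and 7.39. In both groups replicate 2 was the lowest and replicate 3 the highest, and the order of all 4 replicates was the same. The means were 3.90 ± 0.80 and 7.40 ± 0.87 (SD, n = 4), with a difference of 3.50 or 11.3-fold. The spread within groups (pooled SD 0.84) was larger than that of all but a few genes, at the 99.8 percentile of the genes tested. The differences of equal-numbered replicates, 3.23, 3.73, 3.88 and 3.17, nevertheless had an SD of 0.35. Replicate 3 alone reached an estimated FPKM of 15.2 in EZHi, whereas the other EZHi libraries were between 3.71 and 6.54.

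SATB1 (ENSG00000182568, chr3:18345377-18445621, minus strand, 100 kb, 23 transcripts) was at rank 169. Its vehicle log2 values were 2.15, 2.03, 2.08 and 2.31, and its EZHi values were 3.61, 3.53, 4.56 and 3.82. On the shrunken scale the vehicle libraries were tightly grouped, and EZHi replicate 3 stood above the other EZHi libraries. The means were 2.14 ± 0.12 and 3.88 ± 0.47 (SD, n = 4), a difference of 1.74 or 3.35-fold. Equal-numbered replicates differed by 1.47, 1.5, 2.49 and 1.52, so that 3 of 4 were nearly the same. Even in EZHi the level was low, at an estimated FPKM of 0.602 ± 0.22 (SD, n = 4). Expressed as normalized reads, that was 24 to 49 per EZHi library against 8 to 10 per vehicle library.

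NFATC1 (ENSG00000131196, chr18:79395856-79529325, plus strand, 133 kb, 18 transcripts) was at rank 185. Its log2 values were 2.79, 2.85, 2.69 and 2.52 in vehicle and 4.26, 4.55, 4.68 and 4.21 in EZHi. Both groups were compact on the shrunken scale, where NFATC1 had the smallest pooled within-group SD of the 6 genes, 0.19. The means were 2.71 ± 0.15 and 4.42 ± 0.23 (SD, n = 4), a difference of 1.71 or 3.28-fold. The 4 replicate differences were 1.48, 1.70, 1.99 and 1.69. Its estimated FPKM went from 0.257 ± 0.025 to 0.847 ± 0.13 (SD, n = 4).

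CSDC2 (ENSG00000172346, chr22:41561010-41577741, plus strand, 16.7 kb, 2 transcripts) had the smallest difference of the 6 and the shortest gene body. It was at rank 600. Its log2 values were 3.83, 3.88, 3.55 and 3.98 in vehicle and 4.57, 5.19, 4.70 and 5.04 in EZHi. The groups were separated by 0.59 between the highest vehicle and the lowest EZHi library. The means were 3.81 ± 0.18 and 4.87 ± 0.29 (SD, n = 4), a difference of 1.07 or 2.09-fold, and equal-numbered replicates differed by 0.74, 1.31, 1.15 and 1.06. The estimated FPKM went from 0.55 ± 0.067 to 1.16 ± 0.23 (SD, n = 4), that is, to the middle of all genes at the 50.0 percentile.

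**Figure D1:**
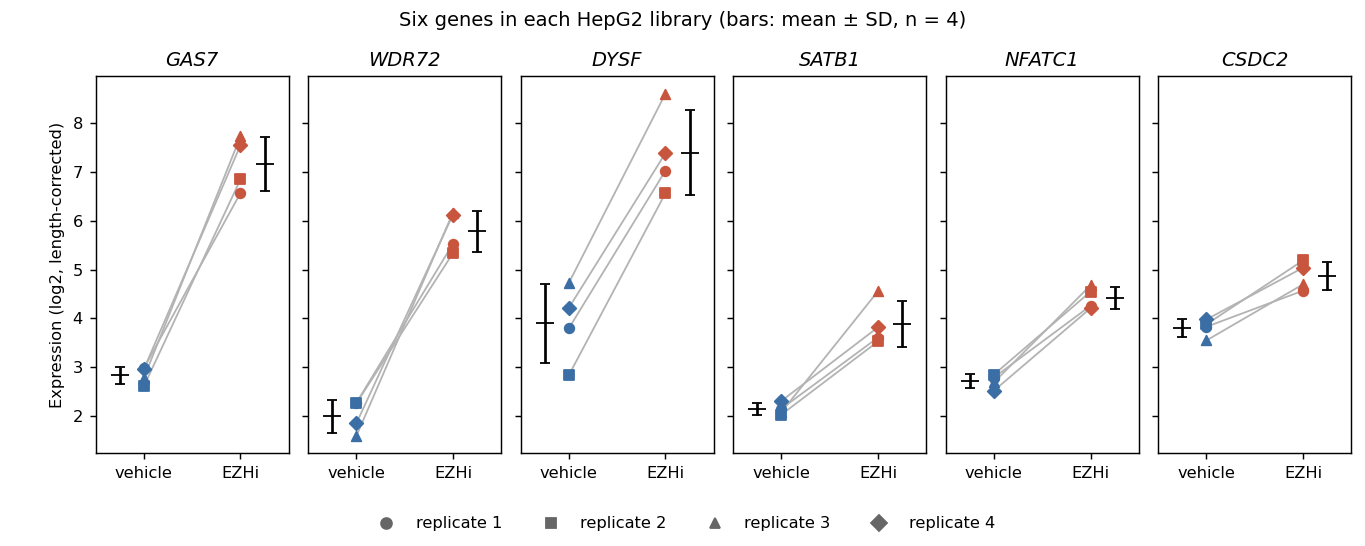
Length-corrected log2 expression (vertical axis) of each of the 6 genes in the 4 vehicle (blue) and 4 EZHi (red) libraries, with lines joining libraries of equal replicate number and black bars giving mean ± SD. The groups do not overlap in any panel, from GAS7 with a gap of 3.60 between the groups to CSDC2 with a gap of 0.59, and replicate 2 is lowest and replicate 3 highest for DYSF in both groups.

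The order of the levels differed between the groups. In vehicle, by mean estimated FPKM, DYSF (0.647) and CSDC2 (0.55) came first, followed by GAS7 (0.28), NFATC1 (0.257), SATB1 (0.173) and WDR72 (0.159). DYSF overlapped CSDC2, GAS7 overlapped NFATC1, and SATB1 overlapped WDR72 among the vehicle libraries, while CSDC2 was above GAS7 and NFATC1 above SATB1 in every library. In EZHi the order was DYSF (7.64), GAS7 (5.96), WDR72 (2.23), CSDC2 (1.16), NFATC1 (0.847) and SATB1 (0.602). By mean estimated FPKM WDR72 thus went from the lowest of the 6 to the third highest. GAS7 exceeded WDR72 and WDR72 exceeded CSDC2 across all EZHi libraries, whereas DYSF overlapped GAS7, CSDC2 overlapped NFATC1 and NFATC1 overlapped SATB1. Both orders rest on the mean length of annotated transcripts, and the transcripts in use are unknown. In normalized reads per vehicle library, WDR72 had 14 to 22 and SATB1 had 8 to 10.

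The 6 genes spanned from the top of the ranking to position 600. When 1 library was left out at a time, GAS7 stayed at rank 1 or 2, WDR72 between 2 and 5, and DYSF between 4 and 9. The same procedure gave ranks between 137 and 270 for SATB1, between 159 and 216 for NFATC1 and between 525 and 745 for CSDC2. The worst rank of SATB1 came from leaving out EZHi replicate 3. COL2A1 and TENT5C were also among the first 6, at 3.71 and 3.65 on the log2 scale. By absolute gain the picture was different, since GAS7 gained an estimated FPKM of 5.68 (rank 573 by gain) and DYSF gained 7.0 (rank 478). SATB1, NFATC1 and CSDC2 gained only 0.429, 0.59 and 0.613.

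**Figure D2:**
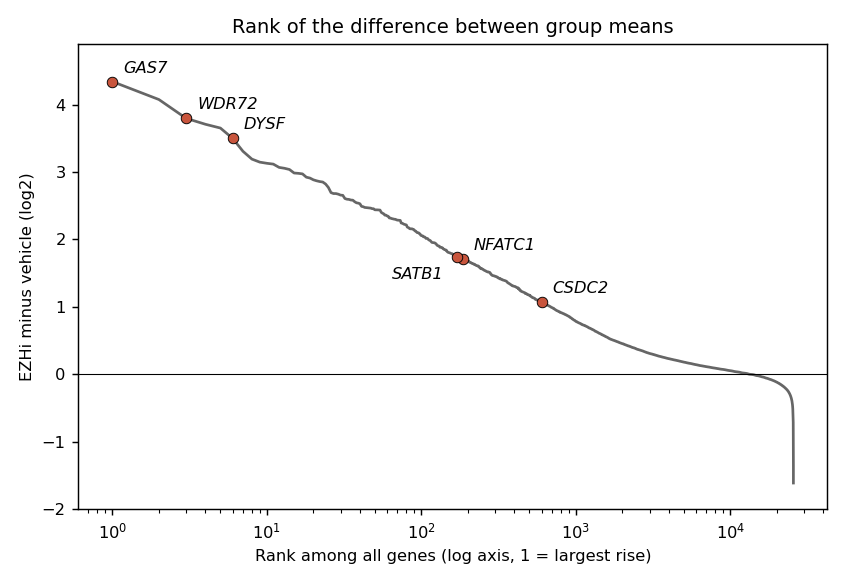
Difference in mean log2 expression, EZHi minus vehicle (vertical axis), against rank among all 25603 genes on a log axis, with the 6 genes as red points. GAS7, WDR72 and DYSF are at ranks 1, 3 and 6 on the steep part of the curve, SATB1 and NFATC1 lie together at 169 and 185, and CSDC2 is at 600.

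All 6 genes had a vehicle level under an estimated FPKM of 1, a class of 7341 tested genes. In this class 482 genes had a log2 difference of at least 1, 84 of at least 2, 9 of at least 3 and 1, GAS7, of at least 4. A fall of at least 1 was found for 1 gene. The class was formed by the vehicle level, which is 1 side of the difference, and the filter used the mean of both groups. Genes under 0.1 in vehicle therefore entered it only through a higher EZHi level. The numbers of rises and falls, here and in the next classes, are given as a description only. Among 5018 genes between 1 and 10, 173 differed by at least 1 and 5 by at least 3, while among 7794 genes at 10 and over these numbers were 19 and 0. The deposited values had been shrunk for genes with few reads, and folds and within-group spreads of such genes are understated. When a pseudocount of 0.5 was added to the estimated FPKM, the log2 differences became 2.99 for GAS7, 2.02 for WDR72, 2.68 for DYSF, 0.69 for SATB1, 0.83 for NFATC1 and 0.65 for CSDC2. DYSF then exceeded WDR72, which moved to rank 27, while SATB1 and NFATC1 moved to ranks 546 and 391.

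**Figure D3:**
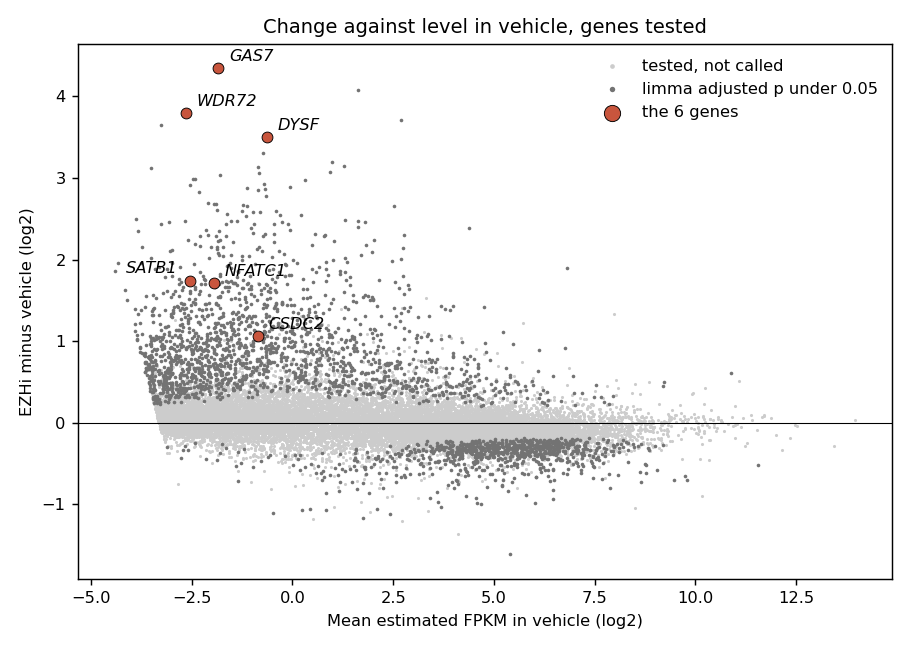
Difference in mean log2 expression (vertical axis) against mean log2 estimated FPKM in vehicle (horizontal axis) for the 20153 genes tested, with genes called by limma in dark grey and the 6 genes as red points. The 6 genes lie left of zero, that is, under an estimated FPKM of 1 in vehicle, and the points with large rises become sparse towards high vehicle levels. The vehicle level enters both axes, so nothing is read from this.

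The difference between replicates of equal number was largest in replicate 3 for 5 of the 6 genes, and in replicate 2 for CSDC2. Among 641 other genes that were called and at least 2-fold higher, replicate 3 gave the largest difference for 43.7%, and among all genes tested for 27.1%. The median differences of those 641 genes were 1.36, 1.42, 1.54 and 1.40 in replicates 1 to 4. Without EZHi replicate 3 the DYSF difference was 3.10, the lowest of its values with 1 library left out. The highest of these values was 3.78.

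For each of the 6 genes, the 2 genes with the most similar values were identified by the root mean square distance of the log2 values over the 8 libraries, each gene being centred on its vehicle mean. GAS7 and WDR72 were near each other, at a distance of 0.475, and WDR72 was nearest to TENT5C (0.443). COL2A1, encoding the main collagen of cartilage, was second nearest to GAS7 (0.543) and nearest to DYSF (0.504), which was followed by CORIN (0.617). SATB1 was nearest to SCN4A (0.16) and STMN4 (0.177). NFATC1 was nearest to RIMKLB (0.0923) and TMEM63C (0.122), and CSDC2 to B4GALNT2 (0.133) and TUBB2B (0.134). The distances were larger for GAS7, WDR72 and DYSF than for the other 3 genes. Centring on the vehicle mean makes a distance depend on the size of the EZHi difference, which was used to choose the genes. Few genes had differences as large as those of GAS7, WDR72 and DYSF, so nothing is read from their larger distances. The 8 libraries are the same for all genes, so these distances are descriptive.

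To put the 6 genes in context, relatives and partners of each were tested with limma over all genes. Among the 20153 genes tested, 2644 (13.1%) had an adjusted p under 0.05 and are described as called, with 1784 higher (8.85%) and 860 lower (4.27%) in EZHi. With replicate number as a block, 6051 (30.0%) were called, 3003 higher (14.9%) and 3048 lower (15.1%). Higher genes made up 67.5% of the calls as deposited, 49.6% with the block, and 88.9% after centring each library on the genes at an estimated FPKM of 10 and over. Of 134 listed relatives, 126 were in the table and 110 were tested. Of these, 12 rose and 14 fell, and 42 of 110 had a positive difference with a median of -0.07, next to 9672 of 20153 and a median of -0.008 for all genes. With the block, 21 rose and 24 fell. The 12 that rose with limma include OTOF and ACP4, which passed the filter only through their EZHi levels. The split depended on the setting, with 16 higher and 4 lower after centring, 12 and 7 with quantile normalization, and 4 and 14 when only genes at an estimated FPKM of 1 and over were tested.

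**Figure D4:**
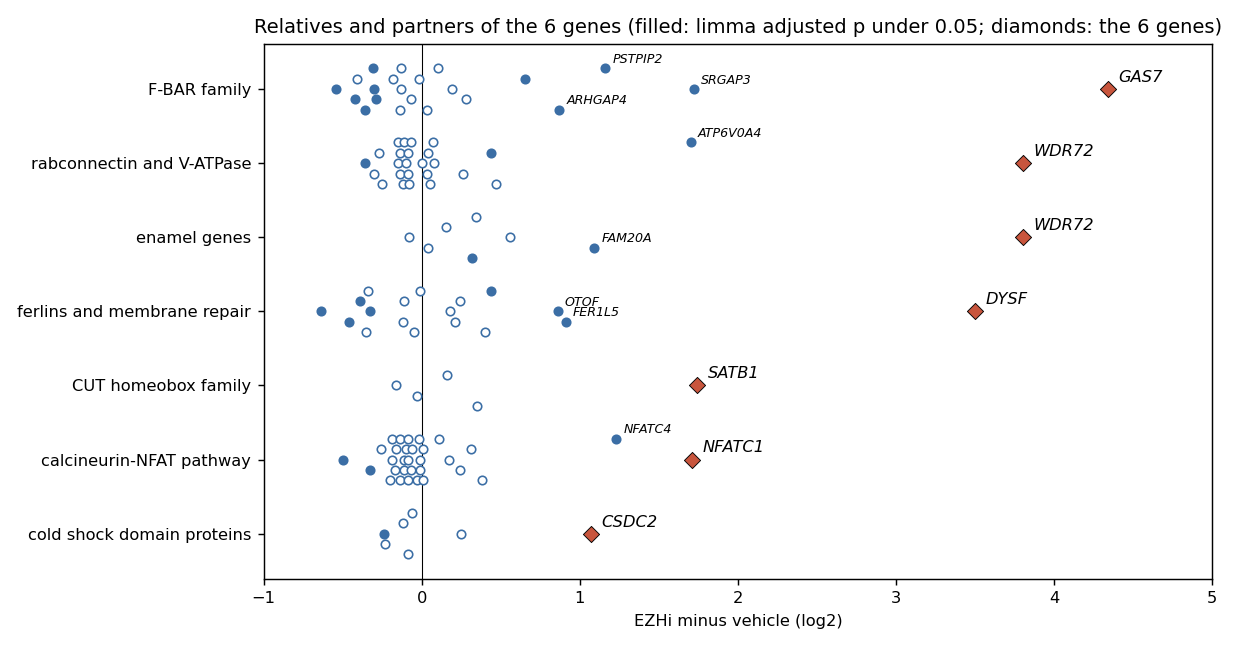
Difference in mean log2 expression, EZHi minus vehicle (horizontal axis), of the tested relatives and partners of the 6 genes, 1 row per list, with filled circles for an adjusted p under 0.05 and red diamonds for the 6 genes themselves. Most circles lie near 0, and the circles furthest to the right are SRGAP3 at 1.72 and ATP6V0A4 at 1.70. In each row the diamond lies to the right of all circles, from which nothing is read, because the 6 genes were chosen for large rises. LIN28A, a cold shock domain gene that differed by 1.26, was not tested and is not drawn.

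GAS7 belongs to the F-BAR family, whose proteins bend membranes and link them to actin. Of 21 tested relatives 4 rose and 6 fell, with a median of -0.13, and with the block 4 rose and 8 fell. SRGAP3, a Rac GTPase-activating protein of neurons, rose by 1.72 (SE 0.22, limma adjusted p 0.000669, n = 4), from an estimated FPKM of 0.331 to 1.10. PSTPIP2, a regulator of macrophage actin, rose by 1.16 (SE 0.14, limma adjusted p 0.000517), from 1.19 to 2.62. ARHGAP4, a GTPase-activating protein, rose by 0.87 (SE 0.18, limma adjusted p 0.0119). These 3 were higher in EZHi in all 4 replicates of equal number, and PSTPIP1 also rose, by 0.65 (limma adjusted p 0.00618). The 6 that fell were SRGAP1, TRIP10, FCHSD2, PACSIN2, FCHO1 and FNBP1L, at -0.54, -0.42, -0.36, -0.31, -0.30 and -0.29, and their limma adjusted p ran from 0.00583 for TRIP10 to 0.0447 for SRGAP1. TRIP10 kept its call in all 8 fits without 1 library (adjusted p up to 0.0214), whereas the other 5 lost it in at least 1 of them (up to 0.117).

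WDR72 is a paralog of WDR7, a subunit of the rabconnectin-3 complex that assists assembly of the vacuolar proton pump (V-ATPase). Among the 25 tested genes of the complex and the pump, 2 rose and 1 fell, with a median of -0.09, and with the block 3 rose and 4 fell. ATP6V0A4, encoding the pump subunit a4 of kidney and inner ear, rose by 1.70 (SE 0.13, limma adjusted p 2.92e-05), from an estimated FPKM of 0.142 to 0.465. DMXL2, encoding rabconnectin-3 alpha, rose by 0.44 (SE 0.09, limma adjusted p 0.00825). WDR7 itself differed by 0.08 (limma adjusted p 0.642), DMXL1 by 0.05 (limma adjusted p 0.791) and ROGDI by -0.14 (limma adjusted p 0.483), and these 3 did not pass the test. ATP6V1E1 fell by 0.36 (limma adjusted p 0.0388), a call that was lost in 6 of the 8 fits without 1 library, where its adjusted p reached 0.116, and with quantile normalization (0.113) and centring (0.0897).

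WDR72 was also placed beside other genes of tooth enamel. Of 7 tested, 2 rose and 0 fell with limma, with a median of 0.32, and the block gave the same numbers (3 and 0 at an unadjusted p under 0.05). FAM20A, encoding a pseudokinase of the secretory pathway that is needed for enamel, rose by 1.09 (SE 0.29, limma adjusted p 0.0358), from 1.28 to 2.60 in estimated FPKM. That call was lost in 5 of 8 fits without 1 library and with quantile normalization (adjusted p 0.0717). ACP4, encoding an acid phosphatase, rose by 0.32 (SE 0.05, limma adjusted p 0.00334) at the limit of the filter, from 0.0957 to 0.119. It passed the filter only through its EZHi level, so its call is not read as a test.

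DYSF is a ferlin. Of its paralogs, OTOF (otoferlin, of the inner ear hair cell) rose by 0.86 (SE 0.11, limma adjusted p 0.00073) and FER1L5 rose by 0.91 (SE 0.12, limma adjusted p 0.000842). Both stayed at low levels, with an estimated FPKM of 0.134 and 0.352 in EZHi. OTOF, at 0.0745 in vehicle, passed the filter only through its EZHi level, so its call is not read as a test. MYOF (myoferlin), the closest paralog of DYSF, differed by -0.34 (SE 0.62, limma adjusted p 0.792), with a within-group SD of 1.24 in vehicle and 0.95 in EZHi, the widest spread among the paralogs. FER1L6 did not pass the filter. In the list of 17 tested ferlins and membrane repair genes, 3 rose and 4 fell, and with the block 6 rose and 5 fell. S100A10 and ANXA2, which form a complex at the plasma membrane and take part in membrane repair, fell by 0.64 (SE 0.09, limma adjusted p 0.00168) and by 0.46 (SE 0.09, limma adjusted p 0.0102). CAV1 (caveolin-1) rose by 0.44 (SE 0.11, limma adjusted p 0.0228), with an adjusted p of up to 0.0688 in the fits without 1 library.

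SATB1 has CUT domains in common with the CUX and ONECUT transcription factors. Of the 4 tested, 0 passed the test with limma and 0 had an unadjusted p under 0.05, while with the block 1 rose. ONECUT1, a liver transcription factor, differed by 0.35 (SE 0.27, limma adjusted p 0.469), but with the replicate block its adjusted p was 0.00521. CUX1 and ONECUT2 differed by -0.03 and -0.16.

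NFATC1 has 3 calcium-regulated paralogs, NFATC2, NFATC3 and NFATC4, and the more distant NFAT5, which responds to osmotic stress. NFATC4 rose by 1.23 (SE 0.10, limma adjusted p 3.88e-05), from 2.82 ± 0.10 to 4.04 ± 0.13 (SD, n = 4). Both NFATC1 and NFATC4 started from similar low levels, at an estimated FPKM of 0.257 and 0.276, and reached 0.847 and 0.646. NFATC2 and NFATC3 were more abundant in vehicle, at 6.23 and 25.9. NFATC2 differed by 0.31 (limma adjusted p 0.243, and 0.0193 with the block) and NFATC3 by -0.19 (limma adjusted p 0.109, and 0.013 with the block). NFAT5 differed by -0.09 (limma adjusted p 0.759). Of the 30 tested genes of the calcineurin-NFAT pathway, 1 rose and 2 fell, with a median of -0.09, and with the block 5 rose and 5 fell. PPP3CC, a catalytic subunit of calcineurin, fell by 0.50 (SE 0.11, limma adjusted p 0.0187), and without EZHi replicate 1, EZHi replicate 4 or vehicle replicate 4 its adjusted p was between 0.0532 and 0.0568. STIM1, a calcium sensor of the endoplasmic reticulum, fell by 0.33 (limma adjusted p 0.0316), and the call was lost in 6 of 8 fits without 1 library, with quantile normalization (0.107) and with centring (0.108). RCAN1, a target gene of NFAT that inhibits calcineurin, differed by -0.02 (limma adjusted p 0.906).

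CSDC2 is a paralog of CARHSP1, a cold shock domain protein that binds mRNA. CARHSP1 fell by 0.24 (SE 0.06, limma adjusted p 0.0336), the direction opposite to that of CSDC2, but this call was lost in 6 of 8 fits without 1 library, with quantile normalization (0.214) and with centring (0.155). The other 5 tested cold shock domain genes did not pass the test, and with the block 2 of the 6 fell. YBX1 differed by -0.09 (limma adjusted p 0.57). LIN28A, at 0.32 in vehicle and 1.58 in EZHi on the log2 scale, did not pass the filter and was not tested.

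Neighbouring genes were then examined, since position had not been used to choose the 6 genes. Within 500 kb of the 6 gene bodies the table held 76 genes, of which 67 were tested. Of these, 6 rose and 1 fell, with a median difference of 0.01, and with the block 11 rose and 7 fell. The 6 include GLP2R and PAIP2B, which passed the filter only through their EZHi levels. Among all genes tested, 13.1% were called with limma and 30.0% with the block.

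In the 500 kb around DYSF, 3 of 15 tested genes rose and 0 fell (4 and 2 with the block, 3 and 2 at an unadjusted p under 0.05). PAIP2B, encoding a repressor of translation, lay 226 kb away and rose by 1.88 (SE 0.17, limma adjusted p 7.72e-05). At an estimated FPKM of 0.0932 in vehicle and 0.335 in EZHi, it was tested only through its EZHi level. CYP26B1, a retinoic acid-degrading enzyme and the nearest tested gene on the side of higher coordinates, lay 442 kb away and rose by 1.69 (SE 0.17, limma adjusted p 0.000194). VAX2, a homeobox gene of the ventral eye, lay 488 kb away and rose by 0.68 (limma adjusted p 0.017), with an adjusted p of 0.0577 without EZHi replicate 4 and of 0.0734 with quantile normalization. ZNF638, 18.5 kb from DYSF on the other side, differed by 0.09 (limma adjusted p 0.431).

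Around GAS7, 1 of 8 tested genes rose and 0 fell with limma (1 and 0 at an unadjusted p under 0.05), and with the block 1 rose and 1 fell, the latter being SCO1 at -0.16 (adjusted p 0.0453 with the block). The gene that rose with limma was its nearest tested neighbour GLP2R, 18.5 kb away, which rose by 0.43 (limma adjusted p 0.0379). GLP2R lost the call in 6 of 8 fits without 1 library and with quantile normalization (0.113). At an estimated FPKM of 0.0924 in vehicle and 0.126 in EZHi, it was tested only through its EZHi level. The nearest tested gene on the other side, MYH3, lay 430 kb away and differed by -0.17 (limma adjusted p 0.279). Around WDR72 the table held 2 genes, and 0 of them passed the filter. The nearest tested genes were ONECUT1 at 723 kb and RSL24D1 at 1420 kb, which differed by 0.35 and -0.01. Around SATB1 the single tested gene was TBC1D5, which overlaps SATB1 on the same strand and differed by -0.08 (limma adjusted p 0.567). Outside that window the nearest tested genes were RFTN1 (0.29) and EFHB (0.09), at 1830 and 1430 kb.

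Around NFATC1, 0 of 9 tested genes passed the test, either with limma or with the block, and 1 had an unadjusted p under 0.05. ATP9B (17.6 kb away) and CTDP1 (150 kb away) differed by -0.08 and 0.04. CSDC2 lies in a gene-dense region with 34 tested neighbours, of which 2 rose and 1 fell, while with the block 6 rose and 4 fell. SEPTIN3, a septin of neurons at 392 kb, rose by 1.18 (SE 0.13, limma adjusted p 0.000225). CHADL, 320 kb away, rose by 0.58 (limma adjusted p 0.0221), a call lost in 4 of 8 fits without 1 library and with quantile normalization (0.0569). XRCC6, a DNA repair gene 43.4 kb away, fell by 0.29 (limma adjusted p 0.0425), a call lost in 6 of 8 such fits, with quantile normalization (0.125) and with centring (0.141). DESI1, 20.3 kb away, differed by -0.20 (limma adjusted p 0.0928, and 0.0107 with the block).

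**Figure D5:**
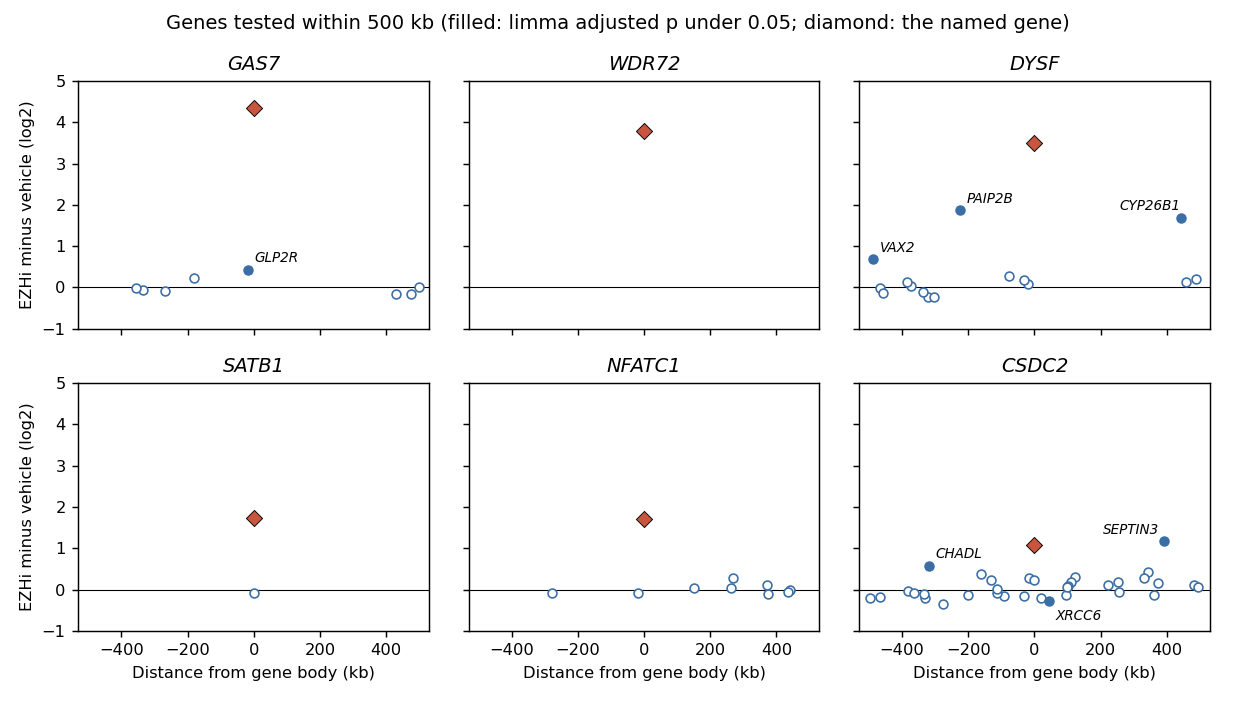
Difference in mean log2 expression, EZHi minus vehicle (vertical axis), of genes tested within 500 kb against distance from the gene body in kb (horizontal axis, negative for lower coordinates), 1 panel per gene, with filled circles for an adjusted p under 0.05 and a red diamond for the gene itself. In each panel except that of CSDC2 the diamond is above all circles, and SEPTIN3 at 1.18 is slightly above CSDC2 at 1.07.

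Annotated genes overlap 5 of the 6 gene bodies, and reads of overlapping genes could not be separated by strand. GAS7 overlaps none. CSDC2 overlaps PMM1, on the opposite strand, whose mean estimated FPKM was 21.5. PMM1 differed by 0.24 (limma adjusted p 0.495, and 0.0255 with the block). TBC1D5, which overlaps SATB1, had a mean estimated FPKM of 69.2. SATB1 also overlaps the antisense gene SATB1-AS1. Of the 5 genes that overlap NFATC1, 2 were in the table and both were under the filter. The authors' methods give the union mode of HTSeq, in which reads on exons shared by overlapping genes are counted for none of them. Any remaining part of overlapping reads in the values of CSDC2 and SATB1 was not tested.

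The identity of the cells and the markers of other cell types were also compared between groups. All 16 markers of hepatocyte-like cell lines were in the table, with 1 of 16 higher and 1 lower. Their summed estimated FPKM was 31000 to 57000 in vehicle and 33900 to 52200 in EZHi. The highest of them was AFP, which the paper uses as a progenitor gene, at a mean of 16100 in vehicle and 16300 in EZHi. With the block, 6 of 16 were higher and 2 lower, the latter including ALB, which differed by -0.28 (adjusted p 0.0314 with the block). Leukocyte markers were 7 of 10 in the table and summed to 1220 to 1700 in vehicle and 1100 to 1570 in EZHi, nearly all of it LYZ, with 0 of 5 tested called by limma in either direction, 2 of 5 with the block and 2 of 5 at an unadjusted p under 0.05. Skeletal muscle markers, of interest for DYSF, were 8 of 10 in the table and summed to 3.76 to 5.56 in vehicle and 8.66 to 12.6 in EZHi. Of 7 tested, TNNT3, CKM and MYH7 rose, by 3.13, 1.18 and 1.34. MYH7, at 0.0701 in vehicle and 0.181 in EZHi, passed the filter only through its EZHi level. ACTA1, MYBPC1, TTN and DES differed by -0.54, -0.11, -0.03 and 0.08 and did not pass the test, although ACTA1 was called lower with the block (adjusted p 0.0481). The myogenic regulator MYOG was at 0.0253 in both groups. Neuron markers (8 of 10 in the table) summed to 4.80 to 6.30 in vehicle and 6.28 to 8.48 in EZHi, with 3 of 6 tested higher. Endothelial markers (6 of 8) summed to 5.00 to 6.20 and 12.4 to 16.6, with 3 of 5 tested higher. CDH5, EGFL7 and VWF rose, by 2.28, 1.57 and 1.45, while PECAM1 and CLDN5 differed by 0.04 and -0.21 and did not pass. TEK, which was not tested, was at about 0.007 in both groups. Fibroblast markers (4 of 8) summed to 12.4 to 15.2 and 15.1 to 17.6, with 1 of 3 tested higher. Among all genes tested, 8.85% were higher and 4.27% lower with limma, and 14.9% and 15.1% with the block. The part of these markers in the differences of the 6 genes was not tested.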

How the data were processed

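RNA was sequenced from 8 HepG2 libraries, 4 per group, with an mRNA library kit and paired reads of 150 bp. The sample titles gave group and replicate number, and the study describes the replicates as biologically independent. Per the labels and the methods, the authors mapped reads to hg38 with HISAT2 (2.2.1 in the submitters' processing notes), counted them over exons without strand with HTSeq 0.9.1 (minimum alignment quality 10), removed genes with fewer than 10 reads over all samples, and applied the regularized log of DESeq2 (1.40.2 in the processing notes), corrected for mean transcript length. The authors' methods give other versions of HISAT2 and DESeq2. The deposited values are therefore on a log2 scale, although named as FPKM, and ran from -6.81 to 19.01. The regularized log shrinks differences between libraries for genes with few reads, within groups as well as between them. The table held 25604 rows, 1 of which was a repeat and was dropped.

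After the length correction was undone, the sum of normalized reads per library was 24.4 to 27.3 (in units of 1000000 reads). Their mean, 25.6, was used to estimate FPKM, with mean transcript lengths and coordinates from GENCODE release 44 (GRCh38). The normalized reads given for single genes are on this common scale. The depth of each library is unknown, so no interval from counting error is given.

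The 20153 genes whose estimated FPKM averaged 0.1 or more were tested by limma 3.58.1 in R 4.3.3 (lmFit, eBayes with trend, group only, two-sided, p adjusted by Benjamini-Hochberg across these genes, threshold 0.05), checked beforehand on simulated data. Ranks, distances and sequence counts were computed in Python (3.11.15) using pandas 2.3.3 and numpy 2.4.6, and figures were drawn in matplotlib 3.10.9. The 6 genes, the lists and the tests were chosen with earlier results of these data known, and the study's own differential expression was not used. Named relatives were all paralogs of the 6 genes, the rabconnectin-3 complex genes DMXL1, DMXL2 and ROGDI, plus up to 3 called genes of each list with the largest change. Named neighbours were the nearest tested gene on each side and up to 3 called genes within 500 kb. A few genes that these rules would name are not reported here. PSTPIP1, the 6 F-BAR genes that fell, SCO1, ANXA2, CAV1, CUX1, ONECUT2, RCAN1, YBX1, LIN28A and the marker genes were named after their values were seen. Replicate numbers from the titles paired the libraries, as deviations from the group means correlated at 0.31, 0.558, 0.634 and 0.216 for equal numbers, so results whose call changed with the replicate number as a block are given with both values. Alternatives comprised the block, 3 other scalings, 2 pseudocounts, 2 filters, no trend, and leaving out each library.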

Additional observations from a re-analysis of the deposited data

Results flagged for a closer look

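Single libraries that stood apart from the other libraries of their group occurred in 4 of the 92 sets of 4 libraries examined, and about 1 in 20 would be seen by chance. None of them concerned the 6 genes themselves. PSTPIP2 was at 4.53 (log2) in vehicle replicate 3 and between 5.02 and 5.07 in the other vehicle libraries. ARHGAP4 was at 4.59 in EZHi replicate 2 and between 4.94 and 5.00 in the other EZHi libraries. SEPTIN3 stood apart in replicate 4 of both groups, at 1.68 in vehicle against 1.47 to 1.5, and at 2.31 in EZHi against 2.83 to 2.87. All 3 genes kept their call in every fit that left out 1 library.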

How the results depend on the processing

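The differences of the 6 genes kept their direction in all 84 alternative values, of which 8 moved by more than the replicate spread. These were the values with a pseudocount of 0.5 (GAS7 2.99, WDR72 2.02, DYSF 2.68, SATB1 0.69, NFATC1 0.83, CSDC2 0.65), NFATC1 with a pseudocount of 0.1 (1.40) and DYSF without EZHi replicate 3 (3.10, with 3.78 as the highest value without 1 library). A pseudocount lowers the fold of genes with few reads by construction. With the replicate block, which pairs libraries of equal number, 6051 genes, 45 relatives and 18 neighbours were called in place of 2644, 26 and 7. With a filter at an estimated FPKM of at least 1, which tests fewer genes, these were 1579 genes and 3 neighbours, and quantile normalization left 3 neighbours. Without 1 library, 1811 to 2571 genes, 14 to 25 relatives and 4 to 8 neighbours were called. The fewest relatives came without EZHi replicate 4 (14), EZHi replicate 1 (15), vehicle replicate 1 or 4 (16 each) and vehicle replicate 2 (17), and the fewest neighbours without vehicle replicate 1, vehicle replicate 2 or EZHi replicate 4 (4 each). Of 560 alternative values for 40 named relatives and neighbours, 482 kept call and direction, 56 lost the call, 5 gained one, all with the block, and 17 changed sign, all in genes without a call. The latter were NFAT5 with centring (0.003), ATP9B with centring (0.015), CTDP1 with quantile normalization (-0.020), EFHB with quantile normalization (-0.073), RSL24D1 with quantile normalization (0.10) and centring (0.084), and, without 1 library, MYOF (-0.86 to 0.14), DMXL1 (-0.012 to 0.11), RSL24D1 (-0.095 to 0.077), EFHB (-0.021 to 0.21) and CTDP1 (-0.016 to 0.11), given here as ranges. Apart from the construction of the settings, the cause was not tested.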
